A study of Mus musculus with 8 samples.

Results

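The bone morphogenetic protein (BMP) and transforming growth factor beta (TGF-beta) pathway was followed here through 49 of the 24063 genes listed in RNA-seq tables of mouse tubuloids, which are epithelial structures grown in Matrigel from fragments of kidney tubules. The 49 members were found by gene symbol and were sorted by role into 8 BMP and GDF ligands, 5 TGF-beta and activin ligands, 5 genes for ligand latency or processing, 7 antagonists, 10 receptors, 6 activating Smads, 3 inhibitory Smads or corepressors and 5 targets. The study asked what a pulse of glial cell line-derived neurotrophic factor (GDNF), the ligand of the Ret receptor on the ureteric bud, does to the RNA of such cultures. GDNF was present for 24 h in 4 cultures and was absent from 4 control cultures, and RNA was taken from both groups on culture day 7. The paper places this 6 days after the pulse, so responses during the pulse or soon after it were not sampled. All 8 cultures came from kidneys of mice labelled as postnatal day 7 to 10 with the genotype Pkd2fl/fl Pax8rtTA TetOCre mTmG, in which the Pax8 promoter of the nephric epithelium drives the doxycycline-dependent activator and no doxycycline is named for these cultures. For the age, the paper's methods give postnatal day 4 to 7 instead. Both groups were fed medium with hepatocyte, epidermal and basic fibroblast growth factors and fetal bovine serum, and no BMP or TGF-beta ligand is named among its additives. Whether the serum or the Matrigel brought such ligands is not given. The cultures hold whatever cells came along with the fragments. Whether cultures shared mice is not given in the sources used here, so p-values measure only the spread between these cultures.

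BMPs, TGF-betas, activins and most growth differentiation factors, though not Gdf15, are secreted dimers that bring together a type II and a type I receptor, both serine/threonine kinases. The type I receptor phosphorylates Smad1, Smad5 or Smad9 on the BMP branch and Smad2 or Smad3 on the TGF-beta and activin branch, and these enter the nucleus with Smad4. Latent TGF-beta binding proteins store the ligand in the matrix, antagonists such as noggin and follistatin trap it outside the cell, and Smad6 and Smad7, themselves targets of the pathway, hold the receptors back. In the kidney, Bmp7 sustains nephron progenitors, Bmp4 and its antagonist Grem1 set where the ureteric bud branches, and TGF-beta is known for its part in fibrosis.

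Among the genes described below, the stretch before the transcription start is shown for 5 that were higher in mean in the GDNF cultures, since Bmp4, Smad6 and Id4 are themselves known to respond to the pathway and Ltbp1 and Ltbp3 led the group that stores its ligands. Each run holds the 250 bases before a start in the RefSeq promoter table of GRCm38.p6, written from 5′ to 3′ on the gene's own strand. They lie at chr14:46390670-46390919 on the minus strand for Bmp4, at chr17:75178531-75178780 on the plus strand for Ltbp1, at chr19:5740650-5740899 on the plus strand for Ltbp3, at chr9:64022060-64022309 on the minus strand for Smad6 and at chr13:48260866-48261115 on the plus strand for Id4. For Ltbp1, the table lists 2 starts and the downstream one is shown. Capitals mark matches, on either strand, to CAGAC, a short Smad3 and Smad4 motif (GTCTG on the other strand), or to GGCGCC, a motif of the BMP Smads.
Bmp4: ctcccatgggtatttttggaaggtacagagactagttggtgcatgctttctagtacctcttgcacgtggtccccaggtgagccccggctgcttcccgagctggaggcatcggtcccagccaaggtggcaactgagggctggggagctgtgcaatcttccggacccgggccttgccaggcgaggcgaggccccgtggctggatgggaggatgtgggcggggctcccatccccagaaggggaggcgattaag
Ltbp1: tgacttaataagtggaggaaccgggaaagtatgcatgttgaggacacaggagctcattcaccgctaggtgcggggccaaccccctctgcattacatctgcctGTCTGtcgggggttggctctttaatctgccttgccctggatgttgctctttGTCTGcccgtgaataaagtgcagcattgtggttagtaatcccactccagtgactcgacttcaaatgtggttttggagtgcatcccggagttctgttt
Ltbp3: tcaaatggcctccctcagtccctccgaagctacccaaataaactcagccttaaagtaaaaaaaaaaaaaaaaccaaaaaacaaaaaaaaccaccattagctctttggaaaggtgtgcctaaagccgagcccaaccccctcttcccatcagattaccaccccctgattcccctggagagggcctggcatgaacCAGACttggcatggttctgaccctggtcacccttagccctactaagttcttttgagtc
Smad6: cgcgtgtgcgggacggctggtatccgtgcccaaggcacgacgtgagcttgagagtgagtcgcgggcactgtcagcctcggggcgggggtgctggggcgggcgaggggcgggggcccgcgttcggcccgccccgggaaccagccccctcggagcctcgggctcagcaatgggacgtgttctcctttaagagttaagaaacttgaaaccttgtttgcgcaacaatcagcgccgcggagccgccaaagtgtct
Id4: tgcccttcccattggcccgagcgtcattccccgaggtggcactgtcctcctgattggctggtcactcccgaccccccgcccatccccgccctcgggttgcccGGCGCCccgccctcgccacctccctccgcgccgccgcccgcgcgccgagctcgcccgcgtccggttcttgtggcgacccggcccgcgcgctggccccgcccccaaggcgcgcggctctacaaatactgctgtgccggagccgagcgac

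Ltbp1 held 2 CAGAC matches, which began 148 and 97 bases before the start, Ltbp3 held 1 that began 58 bases before it, and Id4 held 1 GGCGCC match that began 148 bases before it. The windows of Bmp4 and Smad6 held neither motif. Over the same 250 bases before each of the 45 starts listed for 36 members, CAGAC was found before 20 starts, GGCGCC before 12 and the palindrome GTCTAGAC before 0. Of all 32851 promoters of the table, cut to the same length, 42.2% held CAGAC, 9.59% GGCGCC and 0.167% GTCTAGAC. The latter motifs read the same on both strands, and none of the 3 contains another. These are matches of letters, and no binding was measured.

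Counts were summed per gene and given as CPM, counts scaled to a common library size, with TMM normalization, which corrects each library for its composition. Levels were compared between genes only in FPKM, which also divides by transcript length, taken from the transcript with the most counts of each gene. Totals ranged from 72991721 to 97490625 counts per culture. Control culture 3 stood apart with a TMM factor of 0.790, while the other controls had 0.963 to 0.982 and the GDNF cultures 1.07 to 1.11. Control cultures 3 and 7 and GDNF cultures 6 and 12 contained Xist RNA, the other 4 contained RNA of the Y chromosome, and cultures 3 and 6 also held traces of the latter. The 9 tubule epithelium markers, Pax8 and Cdh16 among them, were found in every culture, with summed levels of 569.8 to 3837 CPM in the controls and 1126 to 2190 CPM in the GDNF cultures. Of the 9, 4 were higher and 5 lower with GDNF, with log2 fold changes from -1.45 for Krt8 to 0.69 for Pax2. Krt8 stood at 680 ± 589 CPM in the controls and 249 ± 34.2 CPM with GDNF (SD, n = 4 each), with 1041 and 1315 CPM in controls 3 and 21. The 9 stroma markers, with Col1a1, Pdgfra and Dcn, were also found in every culture, at 560.0 to 3398 CPM in the controls and 471.7 to 2424 CPM in the GDNF cultures. Of these, 3 were higher and 6 lower with GDNF, with log2 fold changes from -1.34 for Dcn to 0.43 for Col1a1. Lum, at 30.6 ± 19.7 CPM in the controls and 12.5 ± 2.14 CPM with GDNF, did not overlap between the groups. In the edgeR comparison given below, 1 marker of each list, Krt8 and Lum, passed an unadjusted p of 0.05, against 22.1% of all genes. The 5 smooth muscle markers summed to 539.3 to 2381 CPM in the controls and 354.6 to 1264 CPM in the GDNF cultures. The lowest of the endothelial and of the leukocyte markers, Cdh5 and Itgam, stayed at or under 1.24 CPM and 0.555 CPM, the former listed at 0 in 1 culture and the latter in 5. Others were higher, with Emcn at up to 50.6 CPM and Ptprc at up to 17.5 CPM. The summed endothelial markers ranged from 18.6 to 61.0 CPM, led by Emcn, the leukocyte markers, of which 4 of 5 were found by symbol, from 6.62 to 25.2 CPM and the podocyte markers, with Nphs1 at 0 in control 3, from 55.1 to 257.0 CPM. In bulk RNA, fewer cells of a type and less RNA per cell cannot be told apart. The flow cell lane of each culture is not given in the sources used here, so lanes could not be compared.

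No member passed the test for a difference between the groups. With edgeR's quasi-likelihood test and Benjamini-Hochberg adjustment over 16557 genes, 0 of the 49 members had an adjusted p of 0.05 or less, the smallest being 0.167, and the share of all genes past that threshold was 0%. DESeq2 called 1 member at an adjusted p of 0.05, Ltbp1 (adjusted p = 0.0485), against 14.1% of the genes it could adjust, and 5 members at an adjusted p of 0.1 (Ltbp1, Acvr2b, Bmp4, Smad6 and Fst), against 19.9%. At an unadjusted edgeR p of 0.05 there were 8 of 49 members (16.3%), against 22.1% of all genes, so that the members were not called more often than genes at large. Of these, 7 were higher in the GDNF cultures (9.25% of all genes) and 1 was lower (12.9% of all genes). The values of the groups did not overlap for 3 members, Ltbp1, Acvr2b and Smad6, or 6.12%, against 13.2% of all genes.

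The direction of the small differences depended on the scaling. With TMM, 32 members (65.3%) had the higher fitted level in the GDNF cultures, against 52.5% of all genes, and 17 had it in the controls. The median log2 fold change was 0.14 for the members and 0.03 for all genes. The counts by role below are to be read beside that 52.5% and the 22.1% of all genes past the unadjusted p. With scaling by library size alone, 43 members were higher, the medians were 0.37 and 0.25, and 12 members passed the unadjusted p, 12 of them higher. Over all genes, the calls at the unadjusted p split into 1531 higher and 2134 lower with TMM and into 3299 and 850 with library size alone. The count of 8 members fell to 4 without control culture 21 and went up to 18 without control culture 14 and GDNF culture 6, which had the highest and the lowest stroma markers.

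**Figure D1:**
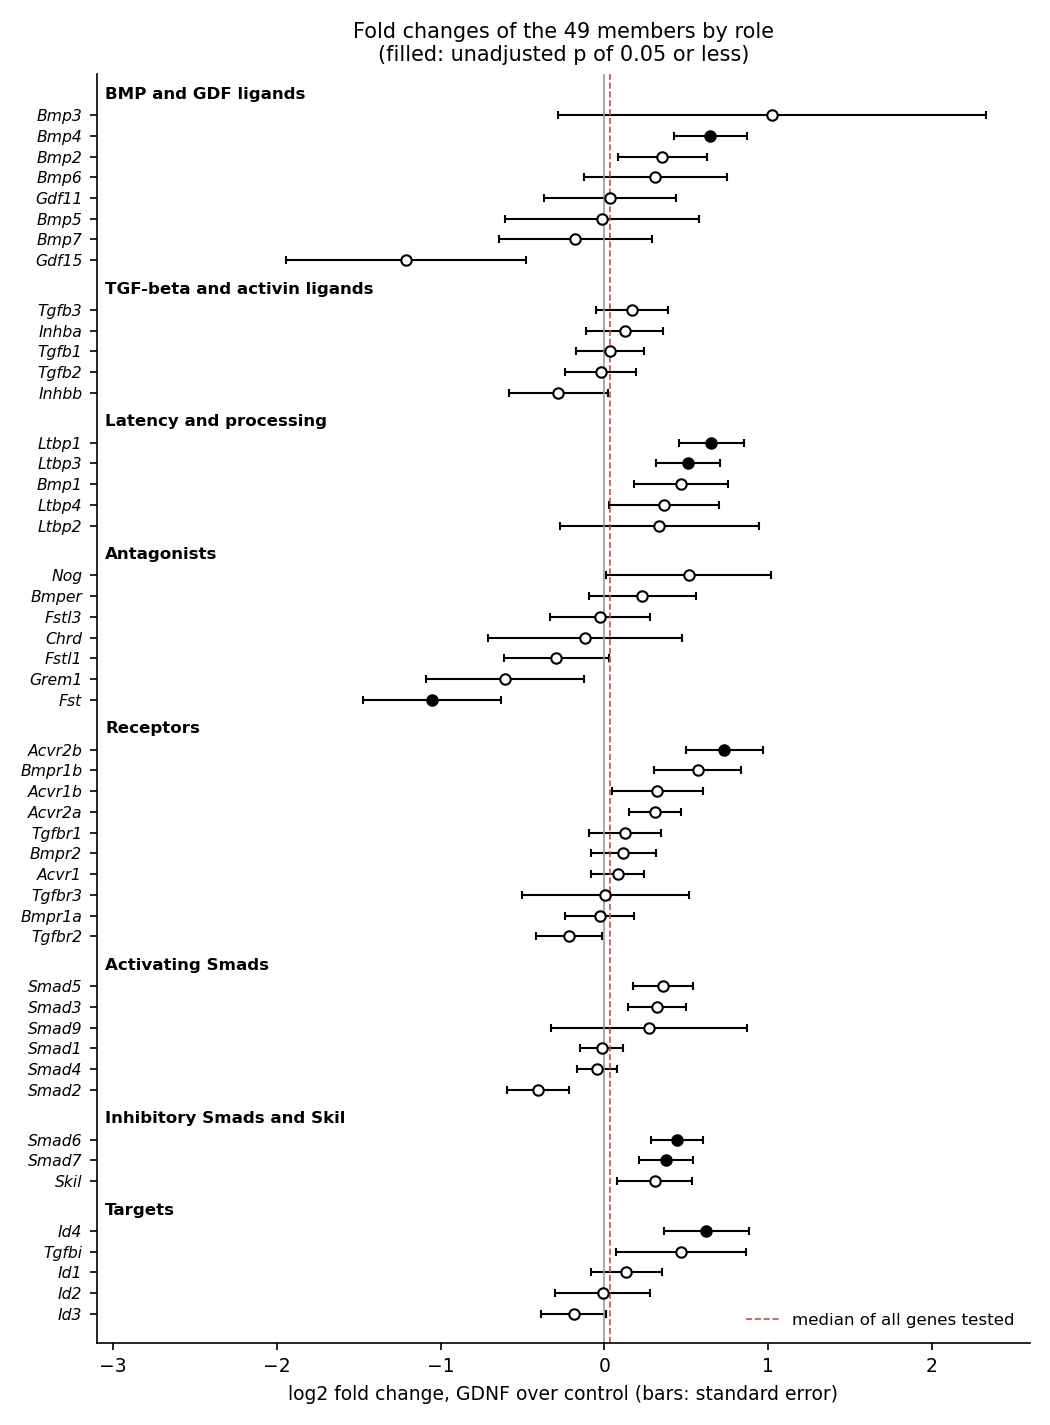
Log2 fold change of each of the 49 members between 4 GDNF and 4 control cultures (x axis, edgeR with TMM, bars are standard errors), grouped by role (y axis). Filled points mark the 8 members at an unadjusted p of 0.05 or less, of which 7 lie to the right of 0 and Fst lies to the left, and the dashed line is the median of all genes tested, 0.03.

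Of the 8 BMP and GDF ligands, 1 passed the unadjusted p, namely Bmp4, and 5 had higher fitted levels in the GDNF cultures and 3 lower, with a median log2 fold change of 0.17. Bmp4 (chromosome 14, 46383525 to 46390669, minus strand), a ligand of the BMP branch made by stroma around the ureteric bud, stood at 13.1, 14.8, 21.1 and 16.1 CPM in control cultures 3, 7, 14 and 21 and at 29.7, 16.8, 28.7 and 26.7 CPM in GDNF cultures 6, 12, 17 and 22. GDNF culture 12 lay within the range of the controls and the other 3 GDNF cultures above it. The log2 fold change was 0.65 ± 0.22 (SE, n = 4 and 4, edgeR adjusted p = 0.168), and it stayed between 0.56 and 0.80 with each culture left out in turn, always at a p of 0.05 or less. It did not pass that threshold in limma-voom (0.51) or without control 3 and GDNF 6 together (0.47). The annotated gene Gm15217 on the other strand shares 89 exon bases with Bmp4, and since the library kit does not mark strand, reads from such shared bases cannot be told apart.

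Gdf15, a stress-induced ligand whose receptor GFRAL signals through Ret, as the GDNF receptor does, had the highest mean of the ligands per transcript length, 113 FPKM over the 8 cultures, although the activin subunit gene Inhba exceeded it in 5 of the 8. It varied widely among the controls, at 371, 64.0, 20.1 and 274 CPM in cultures 3, 7, 14 and 21, and stood at 139, 62.9, 55.8 and 56.7 CPM in GDNF cultures 6, 12, 17 and 22. The GDNF cultures all lay inside the range of the controls, and the log2 fold change of -1.21 ± 0.73 did not pass (edgeR adjusted p = 0.345). Without control 14 and GDNF 6, the cultures with the highest and the lowest stroma markers, it was -2.01, past an unadjusted p of 0.05. That pair was chosen after the data were seen. Bmp7, the survival factor of nephron progenitors, was at 30.3 ± 15.1 CPM in controls and 26.8 ± 14.6 CPM with GDNF (SD, n = 4 each), and its lowest values were 11.69 CPM in control 14 and 10.96 CPM in GDNF 17. Per length, Bmp4 and Bmp7 were of like level, with means of 10.7 and 7.71 FPKM. The ratio of Bmp7 to Bmp4 in FPKM was 1.102 ± 0.641 in the controls and 0.604 ± 0.338 with GDNF, and the values of the groups overlapped. Bmp2, a BMP of the epithelium, was at 3.19 ± 1.02 and 4.08 ± 0.609 CPM, and 3 of its 4 control values lay between 2.66 and 2.69 CPM while control 3 was at 4.72 CPM.

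The remaining BMP-type ligands were scarce. Bmp6, known for the control of iron through hepcidin, stood at 0.583 to 2.09 CPM, on 49 to 194 counts, and overlaps Txndc5 on the other strand by 224 exon bases. Bmp5 and Gdf11 stayed under 1 CPM in every culture, on 9 to 55 and 35 to 74 counts, as did the BMP antagonist Nog and the BMP Smad gene Smad9. Bmp3, which opposes other BMPs, was listed at 0 in control 14 and GDNF 22 and reached 1.81 CPM in GDNF 6, and 3 counts, the smallest number taken as a level, correspond to 0.0299 to 0.0416 CPM in these libraries. None of these genes passed the unadjusted p, and their log2 fold changes had standard errors of 0.40 to 1.31.

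None of the 5 TGF-beta and activin ligands passed the unadjusted p, and their log2 fold changes lay between -0.28 and 0.17, with a median of 0.03. Inhba, the subunit of activin A, was the most abundant, at 50.8 to 129 FPKM over the cultures, with 98.2, 156, 199 and 123 CPM in control cultures 3, 7, 14 and 21 and 112, 165, 173 and 179 CPM in GDNF cultures 6, 12, 17 and 22. In each group the Xist culture with traces of Y-linked RNA, 3 or 6, was the lowest. Tgfb3 stood at 21.3 FPKM and led the TGF-betas, at 56.3, 75.3, 80.2 and 56.4 CPM in the same control cultures and 48.5, 89.9, 72.5 and 91.1 CPM in the GDNF cultures. Its groups overlapped, and the log2 fold change was 0.17 ± 0.22. Per length, Tgfb3 exceeded Tgfb1 in all 8 cultures, with a ratio of 1.87 ± 0.165 in the controls and 2.04 ± 0.384 with GDNF (SD, n = 4 each). Tgfb1, the TGF-beta of fibrosis, was at 22.3 ± 4.82 and 22.9 ± 4.78 CPM, Tgfb2 at 10.2 ± 0.779 and 10.1 ± 2.79 CPM, and Inhbb, the subunit of activin B, at 7.79 ± 1.97 and 6.41 ± 2.15 CPM in controls and GDNF cultures, respectively.

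**Figure D2:**
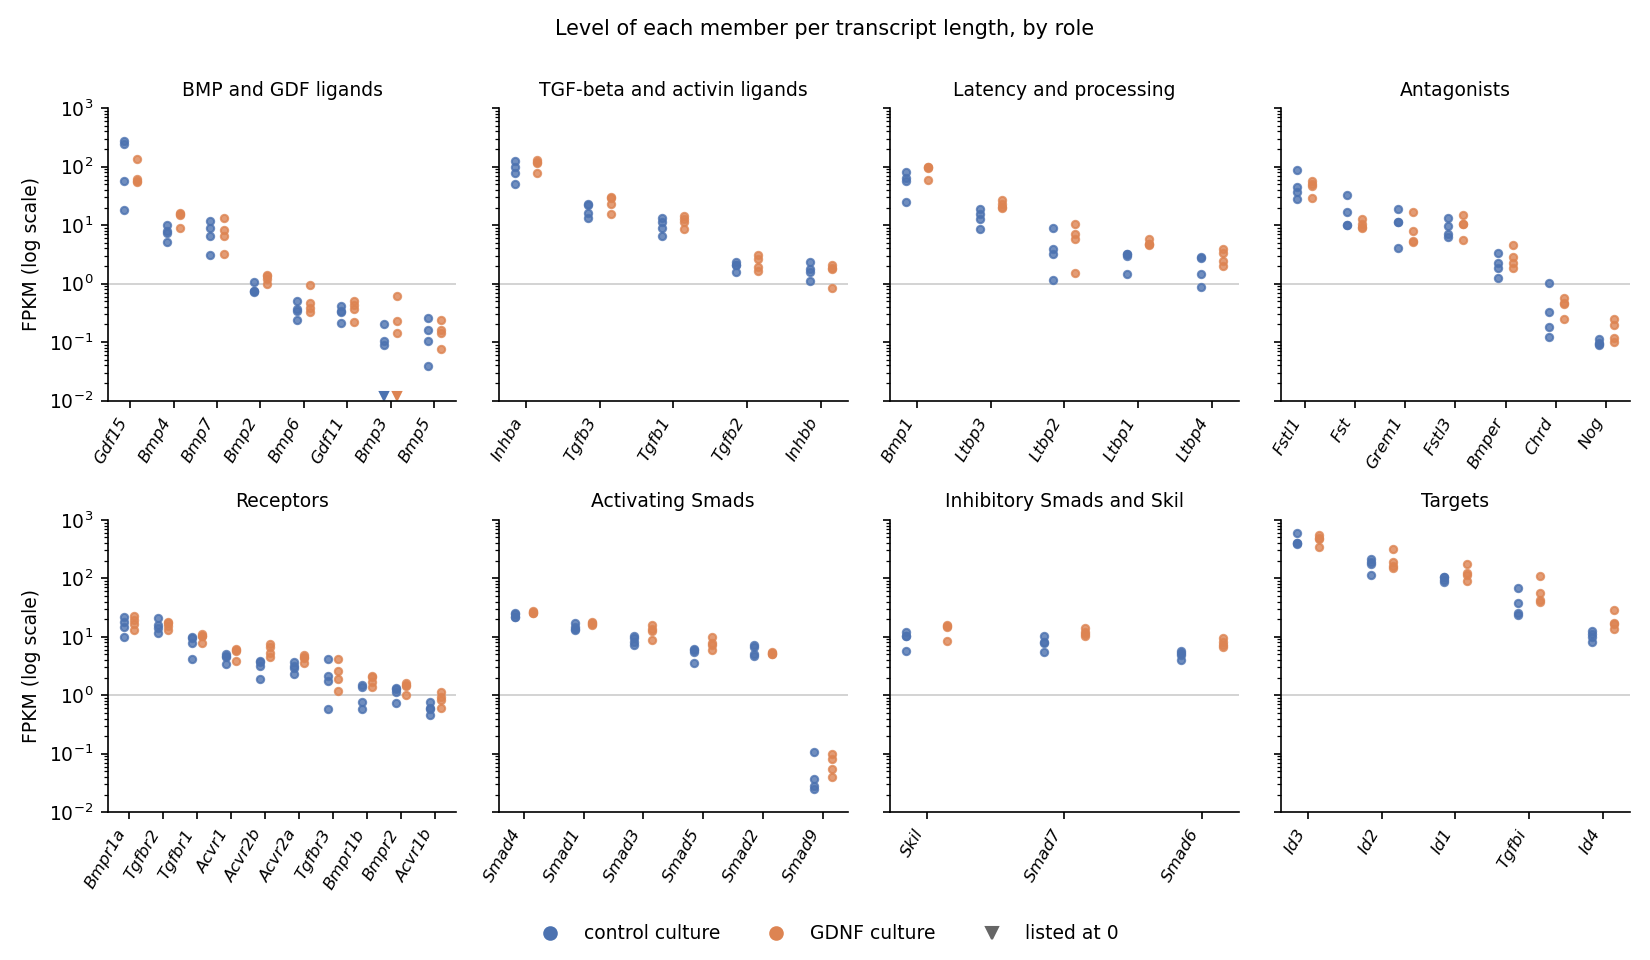
Level of each member in each of the 8 cultures (y axis, FPKM of the transcript with the most counts, on a log scale), in panels by role and ordered by mean. Id3, Id2, Gdf15, Id1 and Inhba had the highest means, led by Id3 at 456 FPKM, and triangles mark the 2 cultures in which Bmp3 was listed at 0.

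The 5 genes that hold or process the ligands were all higher in fitted level in the GDNF cultures with TMM. Their log2 fold changes ran from 0.34 to 0.65, with a median of 0.47, and 2 of the 5 passed the unadjusted p. Over all genes, 52.5% were higher and 22.1% passed that p, and the group was not tested against those shares. The 5 were also all higher with library size alone, a scaling that put the median of all genes at 0.25. Ltbp1 (chromosome 17, 75005480 to 75392512, plus strand), which ties latent TGF-beta to the matrix, stood at 27.2, 47.3, 49.8 and 45.0 CPM in control cultures 3, 7, 14 and 21 and at 62.9, 63.9, 79.5 and 60.3 CPM in GDNF cultures 6, 12, 17 and 22. The lowest GDNF culture exceeded the highest control. Its log2 fold change was 0.65 ± 0.20 (SE, n = 4 and 4, edgeR adjusted p = 0.167), with a range of 0.49 to 0.74 when single cultures were left out. Of the 8 members, Ltbp1 alone kept an unadjusted p of 0.05 or less under all 20 alternatives run.

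Ltbp3 (chromosome 19, 5740900 to 5758536, plus strand), a second carrier of latent TGF-beta, was at 55.7, 98.5, 84.1 and 66.5 CPM in control cultures 3, 7, 14 and 21 and at 95.4, 129, 112 and 97.5 CPM in GDNF cultures 6, 12, 17 and 22. Control 7 lay above GDNF 6 and GDNF 22. The log2 fold change was 0.51 ± 0.20 (edgeR adjusted p = 0.187), and it passed the unadjusted p in 4 of 8 fits with a culture left out. Bmp1, the protease that trims procollagen and cuts chordin, was the most abundant of the group at 72.2 FPKM, or 155 FPKM with its transcripts summed. Bmp1 was at 274, 563, 725 and 508 CPM in control cultures 3, 7, 14 and 21 and at 485, 781, 807 and 793 CPM in GDNF cultures 6, 12, 17 and 22. Cultures 12, 17 and 22 were close to each other and above all controls, whereas GDNF 6 was below 3 of the controls, and the log2 fold change of 0.47 ± 0.28 did not pass (edgeR adjusted p = 0.345). Ltbp4 (21.1 ± 9.42 and 27.2 ± 8.45 CPM) and Ltbp2, which binds fibrillin and not latent TGF-beta (30.0 ± 22.6 and 37.9 ± 23.2 CPM), varied within the groups by more than the groups differed, and Ltbp2 was slightly lower without GDNF 17 (-0.06).

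Of the 7 antagonists, 1 passed the unadjusted p with a lower level, and 5 had lower and 2 higher fitted levels in the GDNF cultures with TMM, while 4 of the 7 were higher with library size alone. The median log2 fold change was -0.12 and 0.06, respectively. Fst (chromosome 13, 114452262 to 114458989), or follistatin, which binds activins, was at 98.6, 23.8, 24.0 and 40.2 CPM in control cultures 3, 7, 14 and 21 and at 19.3, 20.4, 27.9 and 22.5 CPM in GDNF cultures 6, 12, 17 and 22. The 4 GDNF cultures lay close together, and controls 7 and 14 lay among them. The log2 fold change of -1.05 ± 0.42 (SE, n = 4 and 4, edgeR adjusted p = 0.196) rested on control 3, since it was -0.38 without that culture and no longer passed the unadjusted p. It ranged from -1.27 to -0.38 over the fits that each left a culture out, 4 of 8 of which passed, and neither limma-voom (-0.51) nor scaling by library size alone (-0.75) passed. The noncoding gene Gm47040 overlaps Fst by 115 exon bases on the other strand. The ratio of Fst to Inhba in FPKM was 0.657, 0.0998, 0.0788 and 0.214 in control cultures 3, 7, 14 and 21 and 0.0805 to 0.113 in the GDNF cultures.

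Fstl1, a secreted glycoprotein of the follistatin family made by mesenchyme, had the highest level of the antagonists at 47.6 FPKM. It was at 126.5, 167.5, 325 and 134.5 CPM in control cultures 3, 7, 14 and 21 and at 97.9, 158, 194 and 166 CPM in GDNF cultures 6, 12, 17 and 22. Control 14 was the highest and GDNF 6 the lowest, as for the stroma markers. Grem1, the BMP antagonist that permits ureteric budding, was at 20.3 ± 10.4 CPM in controls and 13.3 ± 8.15 CPM with GDNF (log2 fold change -0.61 ± 0.48), and passed the unadjusted p only without GDNF 17 (-1.12). Chrd, or chordin, ranged from 1.03 to 7.22 CPM in controls and 1.55 to 3.55 CPM with GDNF. Fstl3 (18.9 ± 5.85 and 18.6 ± 6.92 CPM), which like Fst binds activins, and Bmper (8.72 ± 3.01 and 10.2 ± 4.30 CPM), a modulator of BMPs, did not pass either. Fstl3 shares 1157 exon bases with Prss57 on the other strand. Nog, or noggin, was at 0.173 to 0.452 CPM, on 14 to 44 counts.

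**Figure D3:**
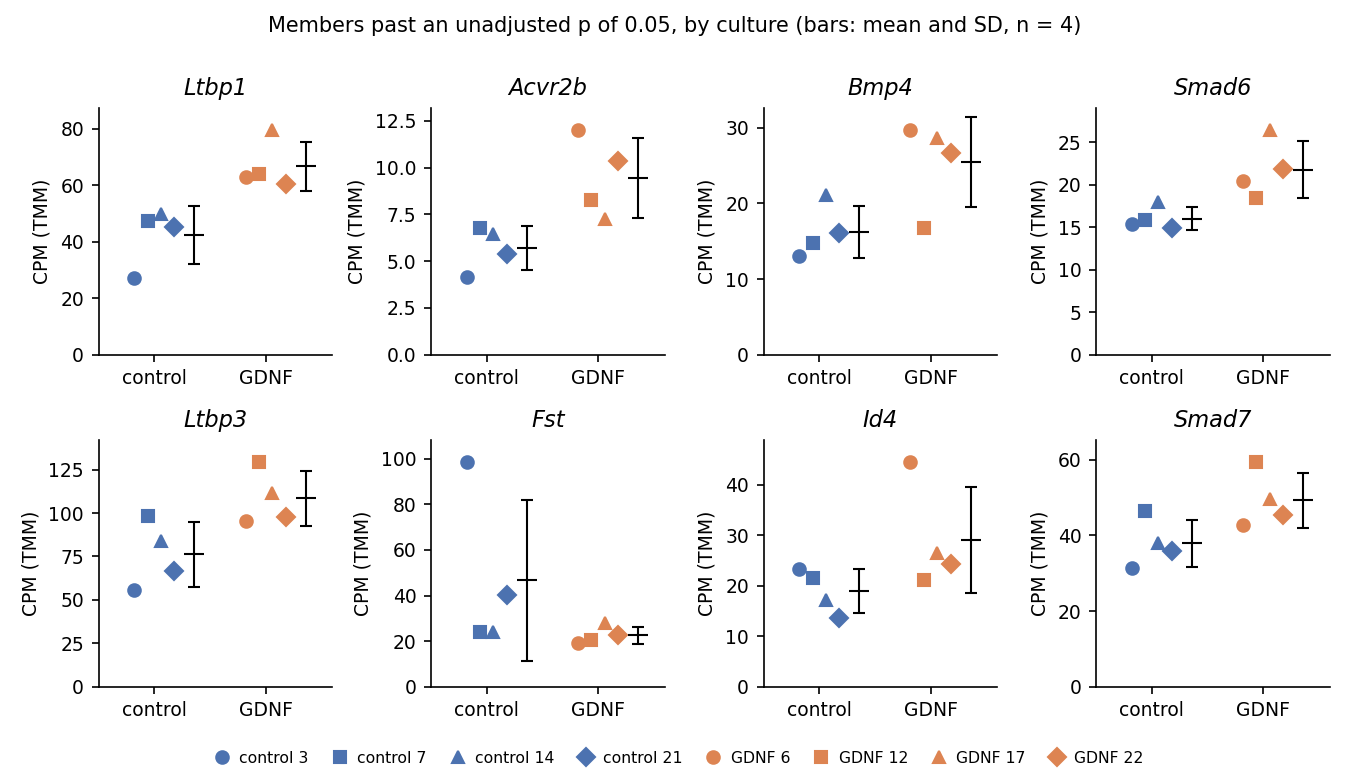
CPM with TMM normalization (y axis) of the 8 members at an unadjusted p of 0.05 or less in the 4 control and 4 GDNF cultures (x axis), 1 symbol per culture, with mean and SD as bars. The groups do not overlap for Ltbp1, Acvr2b and Smad6, and for Fst control 3 at 98.6 CPM lies far above the other 7 cultures.

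Of the 10 receptors, 1 passed the unadjusted p and 8 had the higher fitted level after the pulse. Their median log2 fold change was 0.12. Acvr2b (chromosome 9, 119401583 to 119442148), a type II receptor of activins and some BMPs, was at 4.16, 6.76, 6.45 and 5.38 CPM in control cultures 3, 7, 14 and 21 and at 12.01, 8.27, 7.23 and 10.4 CPM in GDNF cultures 6, 12, 17 and 22. All GDNF cultures were above all controls, with GDNF 17 only just above control 7. The log2 fold change was 0.73 ± 0.24 (SE, n = 4 and 4, edgeR adjusted p = 0.167), between 0.60 and 0.84 with each culture left out and at a p of 0.05 or less in each of those 8 fits. Without control 3 and GDNF 6 together it was 0.47 and did not pass. Acvr2a, its paralog, was at 18.5 ± 2.32 and 22.9 ± 2.80 CPM (log2 fold change 0.31 ± 0.16, edgeR adjusted p = 0.270). Bmpr1b, a type I BMP receptor, was at 27.8 ± 10.6 and 41.3 ± 7.36 CPM, with a log2 fold change of 0.57 ± 0.27 (edgeR adjusted p = 0.237).

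Bmpr1a, the other type I BMP receptor, and Tgfbr2, the type II TGF-beta receptor, were the most abundant receptors by this measure, at 16.97 and 15.81 FPKM. Bmpr1a was at 69.9, 98.7, 122 and 81.3 CPM in control cultures 3, 7, 14 and 21 and at 67.5, 84.9, 99.6 and 113 CPM in GDNF cultures 6, 12, 17 and 22, and the groups overlapped almost entirely. Tgfbr2 was at 191, 138, 116.5 and 208 CPM in those controls and at 116, 161, 138 and 148 CPM in the GDNF cultures, again overlapping. Per length, Bmpr1a exceeded Bmpr1b in every culture, by a ratio of 16.8 ± 7.84 in the controls and 10.2 ± 2.72 with GDNF (SD, n = 4 each) with the transcript of the most counts taken for each gene. With the transcripts of each gene summed, the ratio was 3.60 ± 1.80 and 2.17 ± 0.566, still above 1 in every culture. Tgfbr1 (47.6 ± 13.4 and 51.9 ± 7.28 CPM), Acvr1 (46.4 ± 3.35 and 49.2 ± 8.99 CPM), Bmpr2 (13.1 ± 2.00 and 14.2 ± 2.68 CPM), Acvr1b (2.14 ± 0.336 and 2.68 ± 0.667 CPM) and the coreceptor Tgfbr3 (13.7 ± 9.30 and 13.8 ± 7.13 CPM) overlapped between the groups.

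None of the 6 activating Smads passed the unadjusted p, with 3 higher and 3 lower in fitted level and a median log2 fold change of 0.13. Smad4, the partner of both branches, had the smallest standard error of the 49 members, and stood at 90.9, 84.9, 75.2 and 88.4 CPM in control cultures 3, 7, 14 and 21 and 80.1, 80.5, 84.7 and 83.7 CPM in GDNF cultures 6, 12, 17 and 22. Smad1, of the BMP branch, was at 50.5, 41.5, 46.0 and 54.4 CPM in the controls and 44.9, 51.0, 46.5 and 48.0 CPM with GDNF. Their log2 fold changes were -0.04 ± 0.12 and -0.01 ± 0.13. Smad2, of the TGF-beta branch, was at 113 ± 30.8 CPM in controls and 85.3 ± 4.16 CPM with GDNF (log2 fold change -0.41 ± 0.19, edgeR adjusted p = 0.239), with controls 3 and 21 at 149 and 128 CPM and the other 6 cultures between 80.9 and 90.2 CPM. Smad3, its partner on that branch, had a log2 fold change of 0.32 ± 0.18 (47.8 ± 4.34 and 59.6 ± 13.4 CPM, edgeR adjusted p = 0.308), and Smad5, of the BMP branch, of 0.36 ± 0.19 (118 ± 17.5 and 151 ± 33.9 CPM, edgeR adjusted p = 0.276). Smad9 was listed at 0.136 to 0.587 CPM.

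The 3 genes that restrain the Smads were all higher in fitted level with GDNF, and 2 of the 3 passed the unadjusted p, with a median log2 fold change of 0.38. Over all genes, 52.5% were higher and 22.1% passed that p, and these 3 genes were not tested against those shares. The 3 were also higher with library size alone, which put the median of all genes at 0.25. Smad6 (chromosome 9, 63953076 to 64022085, minus strand), the inhibitor of the BMP branch, was at 15.4, 15.9, 18.0 and 14.9 CPM in control cultures 3, 7, 14 and 21 and at 20.4, 18.5, 26.5 and 21.9 CPM in GDNF cultures 6, 12, 17 and 22. The groups did not overlap, although GDNF 12 exceeded control 14 by little. Smad6 had a log2 fold change of 0.44 ± 0.16 (SE, n = 4 and 4, edgeR adjusted p = 0.174), with a range of 0.34 to 0.52 and 6 of 8 fits past the unadjusted p when single cultures were left out.

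Smad7, the inhibitor of both branches, was at 31.5, 46.4, 38.0 and 35.9 CPM in control cultures 3, 7, 14 and 21 and at 42.7, 59.4, 49.7 and 45.4 CPM in GDNF cultures 6, 12, 17 and 22. Control 7 lay above GDNF 6 and GDNF 22. Its log2 fold change of 0.38 ± 0.16 (edgeR adjusted p = 0.217) passed the unadjusted p in 2 of 8 fits with a culture left out, and it was lost in 12 of all 20 alternatives, among them DESeq2 (0.36), upper-quartile scaling (0.40), DESeq2-style size factors in edgeR (0.36) and a term for Xist RNA (0.38). Skil, the corepressor SnoN, was at 150, 259, 224 and 223 CPM in those controls and at 168, 303, 291 and 298 CPM in the GDNF cultures, so that GDNF 6 lay below 3 controls while the other 3 GDNF cultures lay above all of them. It differed by 0.31 ± 0.23 on the log2 scale (edgeR adjusted p = 0.441).

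Of the 5 targets, 1 passed the unadjusted p and 3 were higher in fitted level, with a median log2 fold change of 0.14. The Id genes, which encode inhibitors of helix-loop-helix factors and are induced by BMPs, included the most abundant members: Id3 at 456 FPKM, Id2 at 189 FPKM and Id1 at 112 FPKM. Id3 was at 484, 393, 595 and 382.5 CPM in control cultures 3, 7, 14 and 21 and at 491, 304.5, 434 and 399 CPM in GDNF cultures 6, 12, 17 and 22. Id2 was at 342, 251, 150 and 229 CPM in the controls and at 372, 180, 194.5 and 219 CPM with GDNF. Neither separated the groups, and their log2 fold changes were -0.19 ± 0.20 and -0.01 ± 0.29. Id1 stood at 99.2 ± 18.3 and 109 ± 32.1 CPM (log2 fold change 0.14 ± 0.22).

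Id4 (chromosome 13, 48261116 to 48266028, plus strand) was the least abundant of the 4 Id genes per length, at 14.7 FPKM. Its levels were 23.2, 21.6, 17.1 and 13.7 CPM in control cultures 3, 7, 14 and 21 and 44.5, 21.1, 26.4 and 24.4 CPM in GDNF cultures 6, 12, 17 and 22. GDNF 6 was the highest by far and GDNF 12 was below controls 3 and 7. For Id4 the log2 fold change was 0.62 ± 0.26 (edgeR adjusted p = 0.205), and without GDNF 6 it was 0.34 and no longer passed the unadjusted p. It passed the unadjusted p in 5 of 8 fits with a culture left out. The noncoding genes A330033J07Rik and Gm49291 on the other strand overlap Id4 by 82 and 171 exon bases. Tgfbi, a matrix protein induced by TGF-beta, was at 110 ± 54.5 CPM in controls and 153 ± 82.3 CPM with GDNF, with control 14 at 189 CPM and GDNF 17 at 274 CPM as the highest of each group (log2 fold change 0.47 ± 0.40).

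The 8 members at the unadjusted p were chosen over these same 8 cultures, so agreement between parts of them is no separate support. The cultures with Xist RNA and those with Y-linked RNA gave differences of the same sign for all 8 members. As differences in mean log2(CPM + 1) between 2 GDNF and 2 control cultures each, they were 0.80 and 0.54 for Ltbp1, 0.80 and 0.49 for Acvr2b, 0.65 and 0.56 for Bmp4, 0.30 and 0.53 for Smad6, 0.58 and 0.48 for Ltbp3, 0.44 and 0.69 for Id4, 0.39 and 0.36 for Smad7, and -1.26 and -0.30 for Fst, the first value being that of the Xist cultures. With edgeR, the interaction term of GDNF with this distinction passed an unadjusted p of 0.05 for 0 of 49 members and 94 of 16557 genes (0.568%), and an adjusted p of 0.05 for 0 of those genes (0%). With so few calls over all genes, the lack of calls among the members does not show that both kinds of culture responded alike.

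Several members varied with the cell type markers from culture to culture. Each member's log2(CPM + 1) was related to the mean log2(CPM + 1) of the stroma markers and of the tubule epithelium markers over the 8 cultures, 98 relations in all, with exact permutation tests of Pearson's r and Spearman's rho and Benjamini-Hochberg adjustment over the 98. In 12 of them the adjusted p of r was 0.05 or less. Relations were computed for the members only, so the share of all genes that go with these scores is not known. Gdf15 had the closest relation, with the epithelium score (r = 0.964, exact p = 2.5e-05, the smallest these permutations can give, adjusted p = 0.00243, rho = 1, exact p = 5.0e-05). Without control 14 and control 3, which lay farthest from the median of that score, r was 0.959. Within the controls r was 0.976 and within the GDNF cultures 0.964. Bmp7 also followed the epithelium score (r = 0.911, exact p = 0.00131, adjusted p = 0.0184, rho = 0.857, exact p = 0.0107, and r = 0.906 without the same pair of cultures). Both ligands were thus highest where the epithelium markers were highest, in controls 3 and 21 and GDNF 6, and lowest in control 14 or GDNF 17.

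On the opposite side, Chrd was inversely related to the epithelium score (r = -0.964, exact p = 7.69e-04, adjusted p = 0.0174, rho = -0.929, exact p = 0.00223, and r = -0.879 without control 14 and control 3). Inhba, Fstl1 and Bmpr1a were inversely related to it as well, with r from -0.918 to -0.876 (exact p from 0.00107 to 0.00397, adjusted p from 0.0174 to 0.0354, rho from -0.952 to -0.857 with exact p from 0.00114 to 0.0107, and r from -0.923 to -0.763 without that pair). Fstl1 had the closest direct relation to the stroma score (r = 0.950, exact p = 4.71e-04, adjusted p = 0.0174, rho = 0.881, exact p = 0.00724), and r was 0.850 without control 14 and GDNF 6, the farthest from the median. Ltbp2, Tgfbr3, Inhbb and Inhba had r from 0.857 to 0.934 with the stroma score (exact p from 6.94e-04 to 0.00437, adjusted p from 0.0174 to 0.0357, rho from 0.738 to 0.905 with exact p from 0.00456 to 0.0458), and r from 0.665 to 0.958 without the same pair. Id2 was the only member with an inverse relation to the stroma score past the threshold (r = -0.952, exact p = 8.93e-04, adjusted p = 0.0174, rho = -0.881, exact p = 0.00724, and r = -0.882 without that pair). The adjusted p of rho was 0.05 or less for 2 of these 12 relations, those of Gdf15 (0.00486) and Inhba (0.0373) with the epithelium score, and 0.0547 to 0.145 for the other 10. Tgfbi passed on rho but not on r with the epithelium score (rho = -0.952, exact p = 0.00114, adjusted p = 0.0373, r = -0.814, exact p = 0.0139, adjusted p = 0.0681, and r = -0.838 without control 14 and control 3). Within each group of 4 cultures, all 12 relations had the same sign as over all 8. Since the 12 were chosen by r over those same cultures, this is no separate support. The 2 scores are not independent of each other, both being shares of the same libraries, and the part of cell composition in any member's level was not tested.

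**Figure D4:**
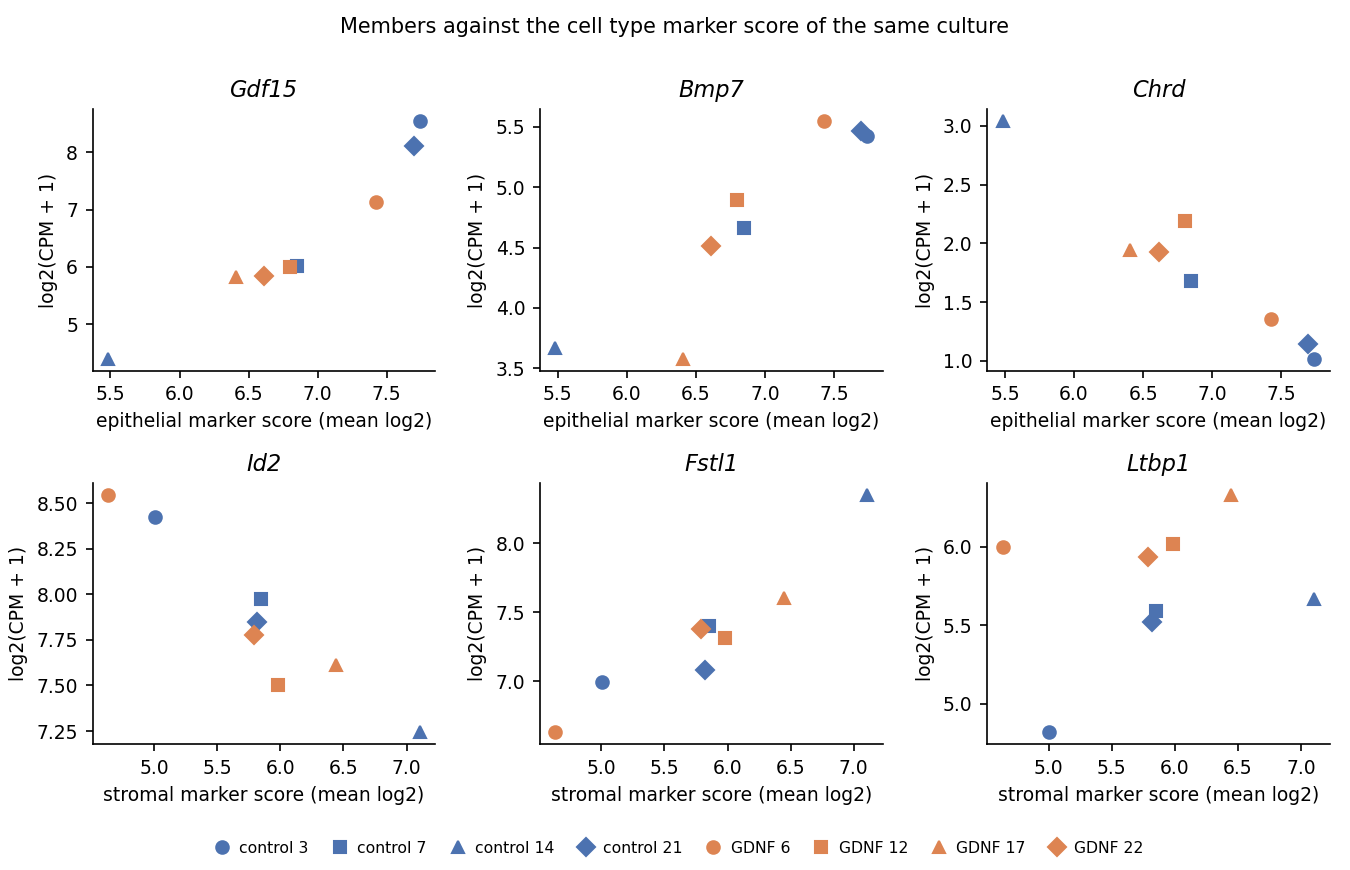
Log2(CPM + 1) of 6 members (y axes) against the mean log2(CPM + 1) of the tubule epithelium markers (upper row) or the stroma markers (lower row) of the same culture (x axes), 1 symbol per culture. Gdf15, Bmp7 and Fstl1 lie along rising lines, with r of 0.964, 0.911 and 0.950, and Chrd and Id2 along falling ones, with r of -0.964 and -0.952. Ltbp1 lies along no single line over the 8 cultures, with r of 0.309, while r was 0.806 within the controls and 0.604 within the GDNF cultures.

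For the 8 members at the unadjusted p, neither score gave an adjusted p of 0.05 or less. Their r with the stroma score lay between -0.598 for Id4 (exact p = 0.114, rho = -0.452, exact p = 0.267) and 0.309 for Ltbp1 (exact p = 0.455, rho = 0.333, exact p = 0.428). Without control 14 and GDNF 6, r with the stroma score was 0.946 for Ltbp1, 0.784 for Ltbp3, 0.747 for Smad7, 0.690 for Bmp4, 0.689 for Smad6, 0.599 for Acvr2b, 0.110 for Id4 and -0.781 for Fst, so these values depended on that pair of cultures. When those cultures were left out of the comparison of groups, 18 members passed the unadjusted p, 13 of them higher in the GDNF cultures and 5 lower, and the 16605 genes tested gave 4315 calls. The 18 held 6 of the 8 members of the full comparison, without Id4 (log2 fold change 0.30) and Smad7, and added Bmp1 (0.82), Ltbp2 (1.30), Chrd (1.05), Tgfbi (1.03), Inhba (0.46), Tgfb3 (0.43), Smad3 (0.47) and Smad5 (0.51) on the higher side and Gdf15 (-2.01), Bmp7 (-0.83), Id2 (-0.47) and Smad2 (-0.53) on the lower side. This alternative was chosen after the data were seen, and 6 of these 12 additions were among the members that went with a marker score. It left out the control with the highest stroma markers and the GDNF culture with the lowest. That choice by itself moves genes that go with those markers toward higher levels with GDNF. The log2 fold change of the smooth muscle marker Acta2, for example, went from -0.04 to 0.86. The added calls are thus no separate support for an effect of GDNF.

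The same cultures were often the extreme ones among the members. No such count is given here for all genes, so this cannot be called particular to the pathway. Of the 44 members that averaged 1 CPM or more, control 3 was the lowest control for 26 and control 14 the highest for 18, while GDNF 6 was the lowest GDNF culture for 27 and GDNF 17 the highest for 17. The median coefficient of variation of these 44 members was 25.0% in controls and 22.5% with GDNF, against 23.6% and 16.0% for all 13894 genes at that level.

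Genes of the pathway outside the 49 were looked at in the same way. Of all genes, 22.1% passed the unadjusted p. The share was 28.6% for the other antagonists tested, 18.2% for the other intracellular genes and 0% for the other ligands, receptors and targets. No list was tested against the share of all genes. Of 16 other ligands, 9 were abundant enough to test and 0 passed the unadjusted p, with Gdf10 (log2 fold change -2.37 ± 1.20, edgeR adjusted p = 0.269) and Inha, the inhibin subunit (0.53 ± 0.31, edgeR adjusted p = 0.328), nearest to it. Of 6 other receptors, 6 were tested and 0 passed, with Amhr2 (1.102 ± 0.641, at or under 0.359 CPM) and Acvrl1 (-0.57 ± 0.42) having the smallest p. Of 18 other antagonists, 14 were tested and 4 passed: Kcp, which enhances BMP signalling in the kidney, was higher in mean at 10.1 ± 2.54 and 14.5 ± 1.18 CPM (log2 fold change 0.53 ± 0.21, edgeR adjusted p = 0.200), and Htra1, a protease (-0.70 ± 0.29), Dand5 (-0.45 ± 0.20) and Lefty1 (-1.35 ± 0.59) were lower in mean. Lefty1 stood at only 0.0755 to 1.16 CPM. Of 11 other intracellular genes, 11 were tested and 2 passed, the paired coactivators Ep300 (23.1 ± 4.65 and 34.4 ± 4.61 CPM, log2 fold change 0.57 ± 0.18, edgeR adjusted p = 0.167) and Crebbp (0.50 ± 0.21, edgeR adjusted p = 0.212), and Ep300 kept an unadjusted p of 0.05 or less under all 20 alternatives. Of 13 other targets, 12 were tested and 0 passed, Fn1, or fibronectin (0.67 ± 0.38), and Cdkn2b (-0.46 ± 0.26) having the smallest p.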

How the data were processed

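RNA was measured in 4 GDNF-pulsed and 4 control tubuloid cultures, with libraries from the SMART-Seq v4 kit and paired reads of 75 bp. As deposited, each culture had a table of raw counts per RefSeq transcript on mm10 (GRCm38). The submitters' processing notes name STAR, featureCounts and DESeq2, without versions. Strand handling and the treatment of reads shared by several transcripts are not given in the sources used here. The authors also deposited FPKM per transcript, scaled by transcript length and library total and without a correction for composition, and TPM, which was not used here.

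Counts were summed per gene symbol, so that reads listed under several transcripts of a gene enter more than once. The groups were compared in R 4.3.3 with edgeR 4.0.16 (quasi-likelihood, TMM) over the 16557 genes left by its low-count filter, which kept all 49 members, and Benjamini-Hochberg adjustment. DESeq2 1.42.0, limma 3.58.1 (voom with quality weights), other scalings, filters and covariates, 1 transcript per gene and leaving out each culture were alternatives. The procedure was tested on simulated data. Summaries used Python 3.11.15 and SciPy 1.17.1, and promoters came from RefSeq (GRCm38.p6). The common coefficient of variation of the counts was 36.8%, so that the 4 cultures per group, more than depth, limited the precision.

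The members and gene lists were chosen with earlier results of these data known. All 49 members are named by role. Those at an unadjusted edgeR p of 0.05 or less or with groups that do not overlap, and the 2 with the highest FPKM in each role, have every culture's value. The others have group means with SD or a range, and members under 1 CPM in every culture are named as low. Of the other lists of the pathway, genes at that p and the 2 smallest p of each list are named. Grem1, Gdf15 and the members added by leaving out control 14 and GDNF 6 are described further because of their values. No paired analysis was made, because the groups share no culture numbers and no label pairs them. Some patterns of sex-linked RNA recurred across the groups. The Y-linked gene Eif2s3y was at 1.83 CPM in control 3 and 4.64 CPM in GDNF 6, and it was listed at 0 in control 7 and GDNF 12. Whether such cultures shared a preparation is not given, and a pairing by these RNAs was not tested.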

Additional observations from a re-analysis of the deposited data

Results flagged for a closer look

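In each group of 4 cultures, the gap between the most extreme culture and its nearest neighbour was set against the range of the group with Dixon's 95% critical value. Chance marks about 1 in 20 groups, and 5 of the 98 groups examined (49 members in 2 groups) were marked. GDNF culture 6 stood apart in 3 of them: Bmp1, at 484.9 CPM, lay below the other GDNF cultures at 781.1 to 807.3 CPM, Skil, at 167.6 CPM, lay below 290.7 to 303.1 CPM, and Gdf15, at 139.3 CPM, lay above 55.8 to 62.93 CPM. Control culture 3 stood apart in the other 2: Bmp2, at 4.723 CPM, lay above 2.658 to 2.69 CPM, and Nog, at 0.277 CPM on 20 counts, lay above 0.1776 to 0.1905 CPM. These cultures also had the lowest summed stroma markers of their groups, at 560 CPM in control 3 and 471.7 CPM in GDNF 6. The part of cell composition in these values was not tested.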

How the results depend on the processing

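The 8 members at an unadjusted p of 0.05 became 4 to 11 when single cultures were left out, with 4 (Acvr2b, Bmp4, Fst and Ltbp1) without control 21 and 11 without control 7, and 7 to 12 under the other tests, scalings, filters and covariates. Without control 14 and GDNF 6, a pair chosen after the data were seen, there were 18, and without control 3 and GDNF 6 there were 6. At an adjusted p of 0.05, edgeR and limma-voom called 0 members in every fit, while DESeq2 called 1, and 5 at an adjusted p of 0.1. Over all genes, the count at the unadjusted p was 2192 (without GDNF 22) to 4104 (without control 7) when single cultures were left out, with 2321 without GDNF 12 and 2359 without control 3, against 3665. The median log2 fold change of the members stayed between 0.08 and 0.27 in those fits. Over the 14 genes followed (the 8 members at the unadjusted p and 6 other genes of the pathway) and 20 alternatives, 204 values stayed on their side of the threshold, 76 kept their direction and lost it, and 0 changed sign. The cause of these losses was not tested. Members under 1 CPM in every culture rest on 9 to 74 counts. Leaving out a culture leaves 3 in its group, and the replicate numbers pair no cultures across groups.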
